A study of Saccharomyces cerevisiae with 11 samples.

Results

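The 30 genes described here encode the enzymes of the tricarboxylic acid cycle, the glyoxylate cycle and gluconeogenesis of the budding yeast Saccharomyces cerevisiae, with enzymes linked to them. They were chosen by name, and their rows were found by NCBI Gene number; all 30 were among the 5936 genes of the table that holds GD, SD and control and among the 5931 genes of the table that holds RD and ControlSYN3. Transcript levels were measured by sequencing of oligo-dT libraries and deposited as FPKM, fragment counts scaled to transcript length and to the size of the library. The 11 libraries were GD1, GD2 and GD3 of genotype GD, SD1, SD2 and SD3 of genotype SD, RD1, RD5 and RD6 of genotype RD, and 1 library each of the wild-type groups control and ControlSYN3. The series deals with the transcription of clustered essential genes, in which natural and synthetic gene copies were told apart by short tags in their sequence. The labels give no treatment, age, growth phase or medium, and they do not spell out GD, SD or RD. They do not say whether the libraries of a group came from separate strains or cultures, so the p-values measure the spread between these libraries, which may be technical. Each table was compared only within itself. The columns of RD1, RD5 and RD6 are headed MD1, MD5 and MD6 in the deposited table, and they were given to the RD libraries by number, which is an inference.

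The tricarboxylic acid cycle runs in the mitochondrial matrix, where it oxidises acetyl-CoA and passes electrons to the respiratory chain. The glyoxylate cycle skips its decarboxylating steps and so lets yeast build sugars and amino acids from acetate or ethanol, while gluconeogenesis turns oxaloacetate back into hexose phosphates. In cells growing on glucose many of these genes are repressed; the Hap2/3/4/5 complex, which binds CCAAT boxes, activates respiratory genes, Cat8, Sip4 and Adr1 activate glyoxylate and gluconeogenic genes, and Rtg1 with Rtg3 maintain the early cycle enzymes when respiration fails.

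Before the results, the libraries themselves differed in ways the labels do not state. RD1 carried a high level of the transcripts specific to a-type cells, with a summed 4916 FPKM over 6 marker genes, where the other 10 libraries held 39.87 to 260.9 FPKM; its 4 alpha-type markers summed to 113.8 FPKM, against 2525 to 11090 FPKM in the others. None of these markers was at 0 in any library. Whether RD1 held more a-type cells or more a-type RNA per cell was not tested. RD5 and RD6 were close to each other (Spearman correlation 0.993 over genes), while RD1 lay further from RD5 (0.906). The FPKM of a library summed to between 944944 and 1111812, and the depth behind them is unknown, so no counting error can be given.

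Values of the members ran from 5.70 FPKM for MLS1 in RD6 to 1209 FPKM for SDH4 in SD1. The lowest lay near the levels of the a-type markers. In RD6 these markers had a median of 6.56 FPKM, with FBP1 at 6.83 and PCK1 at 7.94 FPKM. In GD3 they had a median of 6.3 FPKM, with IDP2 at 6.47 FPKM. For GD1 the median was 12.9 FPKM, with IDP2 at 11.4, PCK1 at 12.3 and FBP1 at 12.45 FPKM. For GD2 it was 20.9 FPKM, with IDP2 at 17.8, PCK1 at 20.1, FBP1 at 14.9 and ACS1 at 17.5 FPKM. For control it was 25.6 FPKM, with MLS1 at 11.5, IDP2 at 20.01, CIT3 at 24.2 and ACS1 at 26.4 FPKM. Whether members at such levels were expressed was not tested, which limits their fold changes and ratios. Together the members made up 0.554%, 0.486% and 0.483% of the summed FPKM in GD1, GD2 and GD3, against 1.02%, 0.949% and 0.995% in SD1, SD2 and SD3 and 0.499% in control. In the other table they held 1.13% in ControlSYN3, 0.97% in RD1, 0.583% in RD5 and 0.58% in RD6. The SD libraries thus held a share of the summed FPKM above that of all GD libraries and control, and ControlSYN3 lay above all RD libraries.

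**Figure D1:**
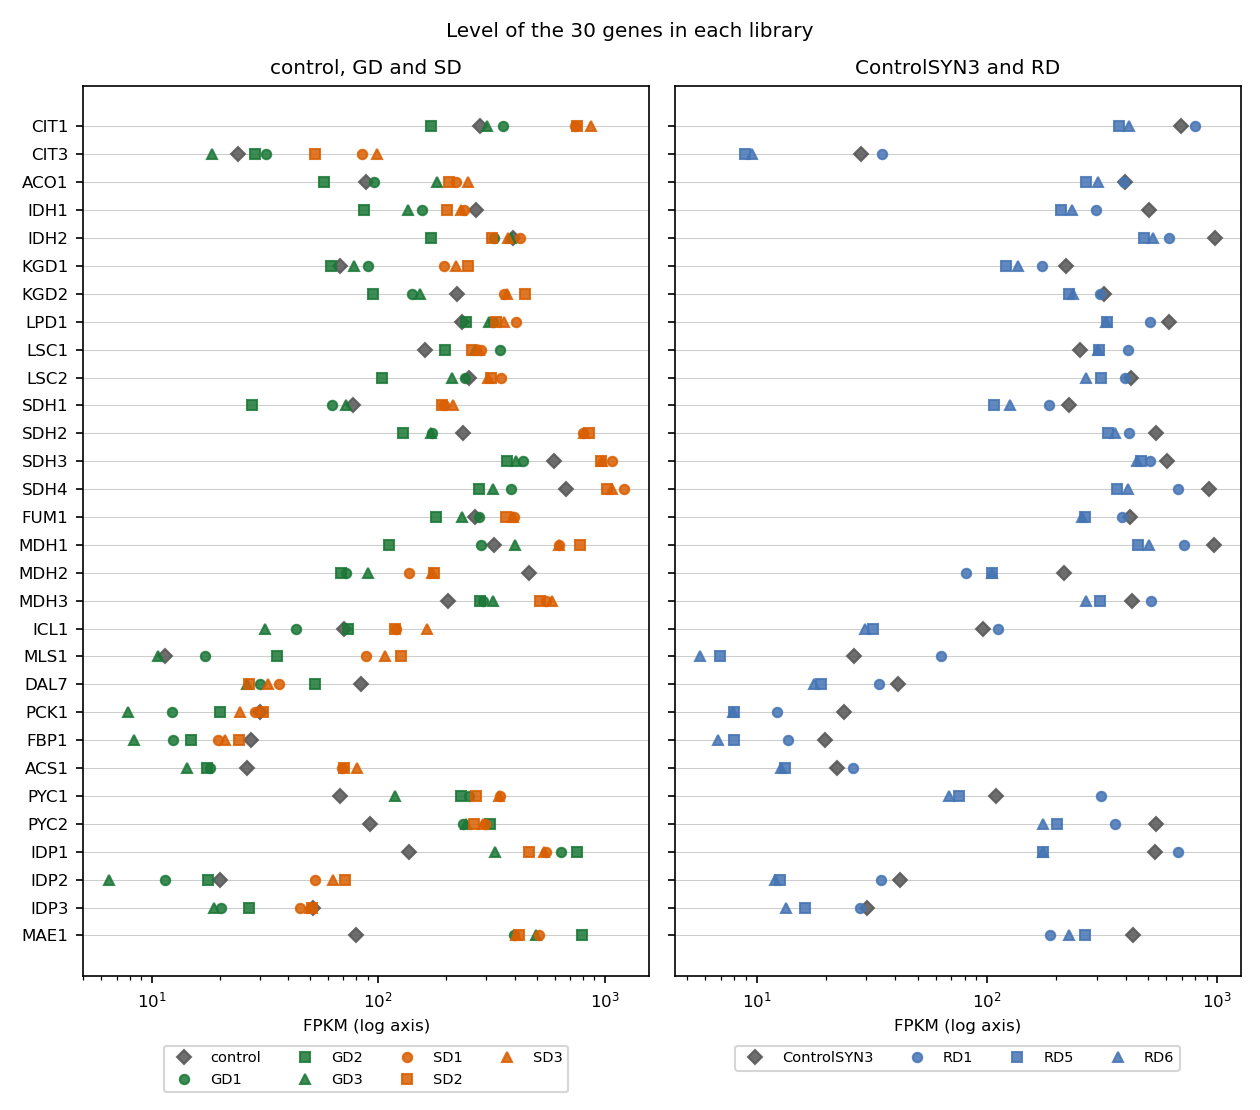
FPKM (log axis) of the 30 genes in each library, with control, GD and SD on the left and ControlSYN3 and RD on the right; each point is 1 library. The SD points lie to the right of the GD points for 24 of the 30 genes, and RD1 lies to the right of RD5 and RD6 for 28 of them.

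Promoter sequences are shown for the 4 subunits of succinate dehydrogenase, which fell together in GD against SD, and for the malate synthase paralogues MLS1 and DAL7, of which MLS1 fell and DAL7 did not pass the test. Each runs 5′ to 3′ on the coding strand, from 250 bases before the start codon to 50 bases into the coding sequence, taken from the RefSeq genome of build R64. The searched motifs, read on both strands, are in capitals: CCAAT (bound by the Hap complex), GTCAC (the R box of Rtg1 and Rtg3), CCNT followed after any 4 letters by CCG (shared by elements of Cat8 and Sip4) and GCGGGG (the core of Mig1 sites). The SDH1 window is chrXI:171080-171379, minus strand; that of SDH2 is chrXII:53882-54181, minus strand; that of SDH3 is chrXI:179417-179716, plus strand. The SDH4 window is chrIV:817700-817999, plus strand. The MLS1 window is chrXIV:406108-406407, plus strand, and the DAL7 window is chrIX:414630-414929, minus strand.
SDH1: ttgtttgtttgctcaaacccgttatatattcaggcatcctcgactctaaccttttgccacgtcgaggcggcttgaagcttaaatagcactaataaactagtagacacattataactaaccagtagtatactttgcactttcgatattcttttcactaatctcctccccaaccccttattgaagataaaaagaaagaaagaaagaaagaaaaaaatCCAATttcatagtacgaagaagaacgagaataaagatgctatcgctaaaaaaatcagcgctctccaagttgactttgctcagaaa
SDH2: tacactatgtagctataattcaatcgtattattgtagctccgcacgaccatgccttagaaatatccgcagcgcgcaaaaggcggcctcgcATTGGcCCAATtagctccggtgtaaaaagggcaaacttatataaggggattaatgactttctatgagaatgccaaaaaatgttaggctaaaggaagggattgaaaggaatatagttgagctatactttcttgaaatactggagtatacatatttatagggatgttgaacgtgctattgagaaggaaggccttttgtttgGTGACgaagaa
SDH3: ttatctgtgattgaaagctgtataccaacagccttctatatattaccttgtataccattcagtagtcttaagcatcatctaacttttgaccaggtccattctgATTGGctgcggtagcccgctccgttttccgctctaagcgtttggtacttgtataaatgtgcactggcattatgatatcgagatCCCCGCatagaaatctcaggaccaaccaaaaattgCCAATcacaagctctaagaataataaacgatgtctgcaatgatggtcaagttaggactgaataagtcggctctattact
SDH4: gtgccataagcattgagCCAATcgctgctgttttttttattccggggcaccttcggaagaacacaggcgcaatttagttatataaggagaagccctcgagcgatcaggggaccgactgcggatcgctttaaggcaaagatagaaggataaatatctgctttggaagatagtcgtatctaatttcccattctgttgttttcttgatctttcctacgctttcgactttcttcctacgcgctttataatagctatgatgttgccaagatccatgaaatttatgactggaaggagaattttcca
MLS1: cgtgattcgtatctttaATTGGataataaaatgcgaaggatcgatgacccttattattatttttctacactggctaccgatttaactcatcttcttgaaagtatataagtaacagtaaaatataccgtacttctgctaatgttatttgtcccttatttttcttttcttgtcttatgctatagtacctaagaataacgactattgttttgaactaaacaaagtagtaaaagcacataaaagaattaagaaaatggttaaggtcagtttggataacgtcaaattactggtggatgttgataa
DAL7: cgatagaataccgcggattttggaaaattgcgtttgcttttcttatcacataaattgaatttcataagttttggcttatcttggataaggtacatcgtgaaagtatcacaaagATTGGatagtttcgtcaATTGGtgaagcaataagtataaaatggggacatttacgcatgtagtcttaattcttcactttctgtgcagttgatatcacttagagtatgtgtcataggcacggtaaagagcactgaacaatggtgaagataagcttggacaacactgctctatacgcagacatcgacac

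All of these 6 windows held a CCAAT box, which lay 35 bases before the start codon in SDH1, 160 and 154 bases before it in SDH2, 147 and 29 bases in SDH3, 233 bases in SDH4 and in MLS1, and 137 and 120 bases in DAL7. SDH3 also held GCGGGG, and SDH2 held GTCAC within its coding part. Across the 30 members CCAAT was present in 18 windows (60%), against 2601 of 6001 windows of the same length over the annotated genes (43.3%). GTCAC was present in 8 members (26.7%, against 26.4% of all windows). GCGGGG was found in LSC2 and SDH3 (6.67%, against 2.57%), and the Cat8 and Sip4 letters were found in PYC2 alone (3.33%, against 3.52%). In PYC2 these letters lay within its coding part. Bases further than 250 before the start codon were not searched, so sites there would be missed. No motif overlapped another motif in a member's window. A match describes the letters only, and CCAAT stood in the promoters of DAL7 and IDH2, which did not pass the test between GD and SD, as well as in those of the SDH genes.

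The comparison of GD with SD has 3 libraries on each side. Of the 30 members 21 were lower in GD and 0 were higher at an adjusted p under 0.05, where 40.8% of all 5899 genes tested were called, 20.4% lower and 20.4% higher. The median log2 fold change of the members was -1.11, against -0.04 over all genes. For 24 members every GD library lay below every SD library, which held for 28.5% of all genes. Fold changes here and below are on the scale of log2(FPKM + 1), tested with limma and adjusted over all genes of the table. In brackets after a mean, SD with n stands for the standard deviation, and elsewhere SD is the group. Leaving out 1 library at a time gave 15 to 23 lower members and 0 higher ones, where 12% to 29.9% of all genes were lower and 9.41% to 24.7% higher. The calls of 15 members held under every alternative, and those of ACO1, IDH1, FUM1, MDH1, PCK1 and FBP1 did not.

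**Figure D2:**
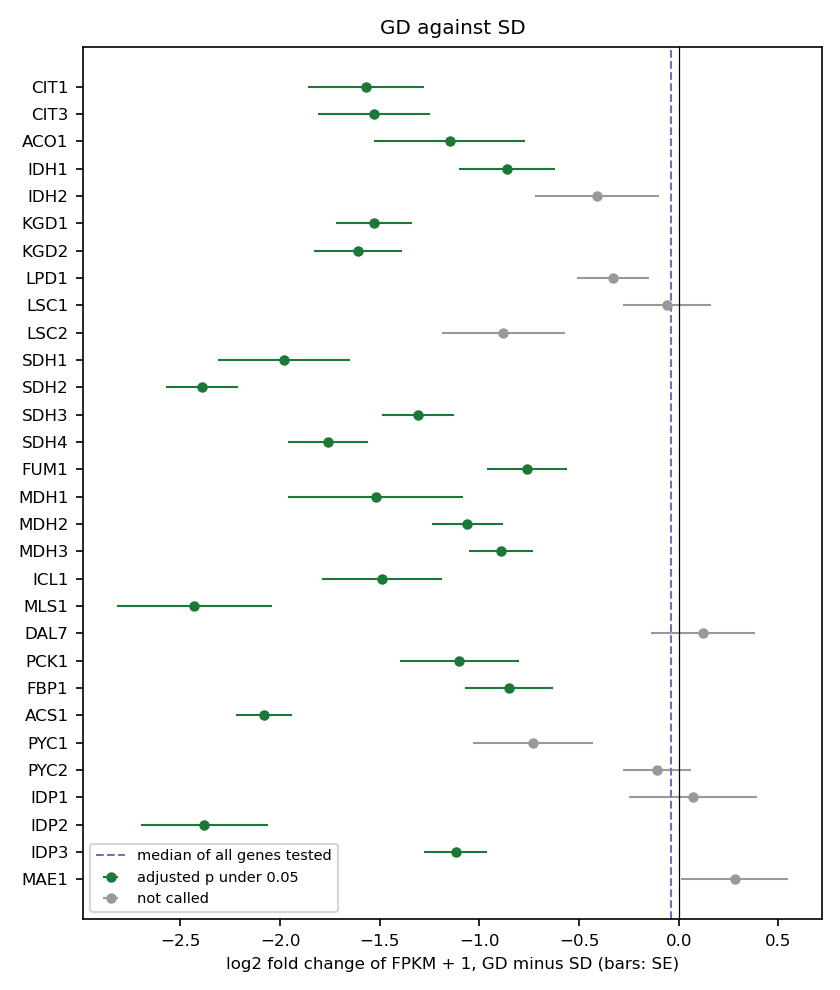
Log2 fold change of FPKM + 1 in GD against SD for each gene, with the standard error as bars; the dashed line is the median of all genes tested, -0.04. The 21 genes in green passed an adjusted p of 0.05 and all lie to the left of 0, from -2.43 for MLS1 to -0.76 for FUM1.

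The citrate synthases, through which acetyl-CoA enters the cycle, were lower in GD than in SD. CIT1, the main mitochondrial citrate synthase, gave 356, 171 and 301.4 FPKM in the GD libraries in the order of their numbers, 737, 754 and 868 FPKM in the SD libraries in the same order, and 282 FPKM in control. CIT3, another mitochondrial citrate and methylcitrate synthase, gave 31.9, 28.6 and 18.6 FPKM in GD, 84.4, 52.9 and 98.9 FPKM in SD and 24.2 FPKM in control. No GD library reached an SD library for either gene, and control fell among the GD libraries. The mean of CIT1 was 786 ± 71.3 FPKM (SD, n = 3) in group SD and 276 ± 95.1 FPKM (SD, n = 3) in group GD. CIT1 thus fell 2.85-fold (log2 fold change -1.57 ± 0.29 (SE), adjusted p = 0.00531), and CIT3 fell 2.99-fold (log2 fold change -1.53 ± 0.28 (SE), adjusted p = 0.00546). ACS1, the acetyl-CoA synthetase used on acetate, gave 18.2, 17.5 and 14.3 FPKM in GD, 68.9, 70.9 and 80.7 FPKM in SD and 26.4 FPKM in control. Its GD libraries lay below control and its SD libraries above it. ACS1 had the lowest adjusted p of the members, with a 4.41-fold lower mean in GD (log2 fold change -2.08 ± 0.14 (SE), adjusted p = 0.000125).

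Between citrate and 2-oxoglutarate, IDH1 and ACO1 fell and IDH2 did not pass the test. IDH1, a subunit of the NAD-dependent isocitrate dehydrogenase, gave 157, 86.2 and 136 FPKM in GD, 239, 201 and 231 FPKM in SD and 271 FPKM in control. IDH2, its partner subunit, gave 324, 171 and 386 FPKM in GD, 421, 319 and 373 FPKM in SD and 392 FPKM in control. IDH1 was lower in every GD library than in any SD library and fell (log2 fold change -0.86 ± 0.24 (SE), adjusted p = 0.0236), while IDH2 overlapped between the groups and did not pass the test (log2 fold change -0.41 ± 0.31 (SE), adjusted p = 0.325). For both genes GD2 was the lowest of the 7 libraries. ACO1, the aconitase, ranged from 57.7 to 182 FPKM in GD and from 204 to 249 FPKM in SD, with 88.3 FPKM in control, and its call was near the threshold (log2 fold change -1.15 ± 0.38 (SE), adjusted p = 0.0454). The call of ACO1 was lost without GD1, SD1, SD2 or SD3 (adjusted p from 0.0847 to 0.129) and with median-of-ratios scaling (adjusted p = 0.0769), and its adjusted p ran from 0.00523 to 0.129 over the alternatives. That of IDH1 was lost without SD1 or SD3 (adjusted p from 0.0803 to 0.0842), with a range of 0.0124 to 0.0842 over the alternatives.

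The 2-oxoglutarate dehydrogenase complex fell in its specific subunits. KGD1, the decarboxylating subunit, gave 90.4, 61.7 and 78.1 FPKM in GD, 196, 249.8 and 219.7 FPKM in SD and 68.0 FPKM in control. KGD2, the succinyl-transferring core, gave 141, 94.5 and 154 FPKM in GD, 357, 443 and 372 FPKM in SD and 222 FPKM in control. The SD libraries were high for both genes, and no GD library reached them. KGD1 was 2.89-fold lower in GD (log2 fold change -1.53 ± 0.19 (SE), adjusted p = 0.0011) and KGD2 was 3.02-fold lower (log2 fold change -1.61 ± 0.22 (SE), adjusted p = 0.00165). LPD1, the dihydrolipoamide dehydrogenase that also serves pyruvate dehydrogenase and glycine cleavage, ranged from 243 to 319.9 FPKM in GD and from 329.8 to 405 FPKM in SD and did not pass the test (log2 fold change -0.33 ± 0.18 (SE), adjusted p = 0.182). Its GD libraries all lay below its SD libraries. LSC1, the alpha subunit of succinyl-CoA ligase, gave 344, 196 and 268 FPKM in GD, 283, 259.7 and 278 FPKM in SD and 161 FPKM in control. LSC2, the beta subunit, gave 243, 104 and 211 FPKM in GD, 349, 314 and 307 FPKM in SD and 251 FPKM in control. LSC1 overlapped between GD and SD (log2 fold change -0.06 ± 0.22 (SE), adjusted p = 0.845). LSC2 lay below SD in every GD library and missed the threshold (log2 fold change -0.88 ± 0.31 (SE), adjusted p = 0.0548), passing it without GD1 (adjusted p = 0.0445) or GD2 (adjusted p = 0.0246), with a range of 0.0246 to 0.143 over the alternatives.

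Succinate dehydrogenase, the cycle enzyme that is also complex II of the respiratory chain, fell in all 4 subunits. SDH2, the iron-sulfur subunit (chrXII:53131-53931, minus strand, R64), gave 173, 128 and 171 FPKM in GD, 799.7, 854 and 808 FPKM in SD and 238 FPKM in control. SDH4, a membrane anchor subunit, gave 386, 278 and 319 FPKM in GD, 1209, 1026 and 1072 FPKM in SD and 676 FPKM in control. Control lay between the groups for both, above every GD library and below every SD library. The mean of SDH2 was 157 ± 25.4 FPKM (SD, n = 3) in GD and 821 ± 29.2 FPKM (SD, n = 3) in SD, a 5.21-fold difference (log2 fold change -2.39 ± 0.18 (SE), adjusted p = 0.000215), and that of SDH4 differed 3.36-fold (log2 fold change -1.76 ± 0.20 (SE), adjusted p = 0.000856). SDH1, the flavoprotein subunit, ranged from 27.9 to 71.7 FPKM in GD and from 192 to 214 FPKM in SD, with 77.2 FPKM in control (log2 fold change -1.98 ± 0.33 (SE), adjusted p = 0.004). SDH3, the cytochrome b subunit, ranged from 370.2 to 436 FPKM in GD and from 959 to 1072 FPKM in SD, with 594 FPKM in control (log2 fold change -1.31 ± 0.18 (SE), adjusted p = 0.00165). The 4 calls held under every alternative.

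Fumarase and the malate dehydrogenases of all compartments fell in GD against SD. MDH1, the mitochondrial malate dehydrogenase, gave 284, 112 and 402 FPKM in GD, 627, 779 and 626 FPKM in SD and 324 FPKM in control. MDH2, the cytosolic enzyme used in gluconeogenesis (chrXV:81787-82920, R64), gave 72.0, 68.6 and 90.2 FPKM in GD, 136, 177 and 172 FPKM in SD and 463 FPKM in control. MDH3, the peroxisomal enzyme, gave 289, 282 and 322 FPKM in GD, 548, 519 and 584 FPKM in SD and 203 FPKM in control. The groups did not overlap for any of them; control was far above both groups for MDH2 and below both for MDH3. The log2 fold changes were -1.52, adjusted p = 0.0285 for MDH1, -1.06 ± 0.18 (SE), adjusted p = 0.00384 for MDH2 and -0.89 ± 0.16 (SE), adjusted p = 0.00535 for MDH3. The spread of MDH1 was wide in GD, where GD2 was at 112 FPKM and GD3 at 402 FPKM. FUM1, the fumarase, ranged from 181 to 277 FPKM in GD and from 365 to 398 FPKM in SD (log2 fold change -0.76 ± 0.20 (SE), adjusted p = 0.019). The call of MDH1 was lost without GD1, SD1, SD2 or SD3 (adjusted p from 0.0598 to 0.0798), with a range of 0.00799 to 0.0798 over the alternatives, and that of FUM1 was lost without SD1 or SD3 (adjusted p from 0.0696 to 0.0757), with a range of 0.0155 to 0.0757.

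In the glyoxylate cycle the genes of the acetate pathway fell and DAL7 did not pass the test. ICL1, the isocitrate lyase, gave 43.4, 73.3 and 31.8 FPKM in GD, 120.3, 118 and 165 FPKM in SD and 70.9 FPKM in control. MLS1, the malate synthase of the cycle (chrXIV:406358-408022, R64), gave 17.2, 35.7 and 10.7 FPKM in GD, 88.7, 126 and 107 FPKM in SD and 11.5 FPKM in control. DAL7, a malate synthase paralogue controlled with allantoin breakdown (chrIX:413015-414679, R64), gave 30.1, 52.3 and 26.3 FPKM in GD, 36.6, 26.9 and 32.5 FPKM in SD and 84.1 FPKM in control. ICL1 and MLS1 were low in every GD library and high in every SD library, while DAL7 was highest in control and overlapped between GD and SD. MLS1 had a 5.05-fold lower mean in GD (log2 fold change -2.43 ± 0.39 (SE), adjusted p = 0.00319) and ICL1 a 2.72-fold lower one (log2 fold change -1.49 ± 0.30 (SE), adjusted p = 0.00769). DAL7 differed by 0.12 ± 0.26 (SE), adjusted p = 0.731 on the log2 scale. Coding sequences of MLS1 and DAL7 were 74% identical, with a longest identical run of 19 bases.

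The gluconeogenic enzymes were among the members with low levels. PCK1, the phosphoenolpyruvate carboxykinase, gave 12.3, 20.1 and 7.89 FPKM in GD, 28.6, 31.1 and 24.7 FPKM in SD and 30 FPKM in control. FBP1, the fructose bisphosphatase, gave 12.4, 14.9 and 8.34 FPKM in GD, 19.7, 24.3 and 21.2 FPKM in SD and 27.3 FPKM in control. GD lay below SD in every library, and control was among the SD libraries for PCK1 and above them all for FBP1. Both genes fell in GD against SD (log2 fold change -1.10 ± 0.30 (SE), adjusted p = 0.0221 for PCK1 and -0.85 ± 0.22 (SE), adjusted p = 0.0175 for FBP1). The call of PCK1 was lost without GD1, SD1, SD2 or SD3 (adjusted p from 0.0562 to 0.0711), with a range of 0.00163 to 0.0711 over the alternatives, and that of FBP1 was lost without SD2 or SD3 (adjusted p from 0.0626 to 0.0646), with a range of 0.00482 to 0.0646.

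The pyruvate carboxylases, which refill the cycle, and the malic enzyme MAE1 did not pass the test between GD and SD. PYC1, a pyruvate carboxylase, gave 251, 232 and 118 FPKM in GD, 344, 271 and 342 FPKM in SD and 67.8 FPKM in control. PYC2, its paralogue, gave 237, 313 and 245 FPKM in GD, 297, 264 and 291 FPKM in SD and 91.6 FPKM in control. MAE1, the mitochondrial malic enzyme (chrXI:382716-384725, R64), gave 395, 789 and 498 FPKM in GD, 509.7, 418 and 407 FPKM in SD and 80.2 FPKM in control. GD and SD overlapped for PYC2 and MAE1, and every strain library lay above control for all 3 genes. The log2 fold changes were -0.73 ± 0.30 (SE), adjusted p = 0.0849 for PYC1, -0.11, adjusted p = 0.634 for PYC2 and 0.28, adjusted p = 0.434 for MAE1. PYC1 passed it without GD2 (adjusted p = 0.0473), with a range of 0.0473 to 0.213 over the alternatives. Coding sequences of PYC1 and PYC2 were 85.1% identical, with an identical run of 200 bases, so the split of reads between them by the authors' counting is uncertain.

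Of the NADP-dependent isocitrate dehydrogenases, the cytosolic and peroxisomal forms fell. IDP1, the mitochondrial form, gave 644, 751 and 326 FPKM in GD, 552, 461 and 537 FPKM in SD and 137 FPKM in control. IDP2, the cytosolic form, gave 11.4, 17.8 and 6.47 FPKM in GD, 52.8, 71.2 and 62.9 FPKM in SD and 20.01 FPKM in control. IDP3, the peroxisomal form, gave 20.3, 27.0 and 18.9 FPKM in GD, 45.3, 50.8 and 50.1 FPKM in SD and 51.4 FPKM in control. IDP2 and IDP3 were lower in every GD library than in any SD library, and IDP1 overlapped with GD2 highest and GD3 lowest. IDP2 was 5.24-fold lower in GD (log2 fold change -2.38 ± 0.32 (SE), adjusted p = 0.00164) and IDP3 2.21-fold lower (log2 fold change -1.12 ± 0.16 (SE), adjusted p = 0.00193), while IDP1 differed by 0.07 ± 0.32 (SE), adjusted p = 0.872 on the log2 scale. In every GD library IDP2 lay near the median of the a-type markers, which limits its fold change.

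Against the single control library, GD showed higher transcripts of PYC1, PYC2, MAE1 and IDP1 and lower transcripts of MDH2. Of the 30 members 4 were higher and 7 lower, where 32.1% of all genes were called, 4.98% higher and 27.1% lower; the median of the members was -0.51 and that of all genes -0.44. MAE1 rose 7-fold (log2 fold change 2.73 ± 0.39 (SE), adjusted p = 0.00495), PYC2 2.89-fold (1.51 ± 0.24 (SE), adjusted p = 0.00647), IDP1 4.2-fold (1.98 ± 0.45 (SE), adjusted p = 0.0168) and PYC1 2.96-fold (1.48 ± 0.42 (SE), adjusted p = 0.0342). MDH2 was 6.02-fold lower, at 76.9 ± 11.6 FPKM (SD, n = 3) against 463 FPKM (log2 fold change -2.58 ± 0.25 (SE), adjusted p = 0.0026). The other lower members were IDP3 (-1.20, adjusted p = 0.00976), FBP1 (-1.17, adjusted p = 0.0258), SDH4 (-1.06, adjusted p = 0.0289), DAL7 (-1.26, adjusted p = 0.037), IDH1 (-1.14, adjusted p = 0.0379) and ACS1 (-0.64, adjusted p = 0.045). Every GD library lay above control for 7 members, against 16.2% of all genes, and below it for 15, against 59.6%. The lone control was assumed to vary like the strain libraries.

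Several of these calls depended on the scaling. With median-of-ratios scaling the median of all genes moved from -0.44 to -0.03, 9.32% of all genes were higher and 8.98% lower, and 5 members were higher and 2 lower. MDH3 then joined the higher members, and MDH2 and IDP3 were the lower ones. MDH2 and MAE1 were called under every alternative. Among leave-out alternatives, the call of PYC1 was lost without GD1, SD1, SD2 or SD3 (adjusted p from 0.0515 to 0.0766), that of FBP1 without GD1 or SD3 (adjusted p from 0.0545 to 0.055) and that of SDH4 without SD1 or SD3 (adjusted p from 0.0591 to 0.0649). The call of DAL7 was lost without GD1, GD3, SD1, SD2 or SD3 (adjusted p from 0.0534 to 0.0903), that of IDH1 without SD1, SD2 or SD3 (adjusted p from 0.0605 to 0.0723) and that of ACS1 without GD1, SD1, SD2 or SD3 (adjusted p from 0.0625 to 0.0862). Over all alternatives the adjusted p ran from 0.0065 to 0.101 for PYC1, 0.0077 to 0.109 for FBP1, 0.0181 to 0.175 for SDH4, 0.00304 to 0.11 for DAL7, 0.0121 to 0.212 for IDH1 and 0.028 to 0.343 for ACS1. In a fit of GD and control alone the calls of PYC2 (adjusted p = 0.0555), IDP1 (adjusted p = 0.071) and IDP3 (adjusted p = 0.0688) were lost as well, and over all alternatives their adjusted p ran from 0.00269 to 0.0555, 0.00493 to 0.071 and 0.00216 to 0.0688. Without GD2, LSC1 was called higher and ICL1, PCK1 and IDP2 lower, so that 5 members were higher and 10 lower. Over all genes 7.72% were then higher and 39.4% lower.

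Against the same control library, 13 members were higher in SD: both citrate synthases, both pyruvate carboxylases, 2 of 4 succinate dehydrogenase subunits, 2 of 3 NADP isocitrate dehydrogenases, ACS1, MAE1, KGD1, MDH3 and MLS1. None of the genes for the steps from citrate to 2-oxoglutarate, for succinyl-CoA ligase or for gluconeogenesis (PCK1 and FBP1) passed the test. Of the 30 members 13 were higher and 2 lower, where 41.8% of all genes were called, 10.4% higher and 31.4% lower; the members' median was 0.97 and that of all genes -0.37. MLS1 rose 9.32-fold (log2 fold change 3.10 ± 0.55 (SE), adjusted p = 0.00473), MAE1 5.55-fold (2.45 ± 0.39 (SE), adjusted p = 0.00308), PYC1 4.71-fold (2.21 ± 0.42 (SE), adjusted p = 0.00591) and IDP1 3.78-fold (1.91 ± 0.45 (SE), adjusted p = 0.0129). SDH2 rose 3.45-fold (1.78 ± 0.26 (SE), adjusted p = 0.00243), KGD1 3.26-fold (1.68 ± 0.26 (SE), adjusted p = 0.00299), ACS1 2.79-fold (1.44 ± 0.20 (SE), adjusted p = 0.00211), PYC2 3.1-fold (1.62 ± 0.24 (SE), adjusted p = 0.00259) and MDH3 2.71-fold (1.43 ± 0.23 (SE), adjusted p = 0.00321). The remaining higher members were CIT3 (1.62, adjusted p = 0.015), CIT1 (1.47, adjusted p = 0.0228), IDP2 (1.58, adjusted p = 0.027) and SDH3 (0.75, adjusted p = 0.0464). The lower members were MDH2, at 162 ± 22.0 FPKM (SD, n = 3) against 463 FPKM (-1.52 ± 0.25 (SE), adjusted p = 0.00369), and DAL7 (-1.38 ± 0.37 (SE), adjusted p = 0.0202). Every SD library lay above control for 23 members, against 28.4% of all genes, and every SD library lay below it for 5, against 60.5%. In control MLS1 (11.5 FPKM) lay below the median of the a-type markers (25.6 FPKM), which limits its 9.32-fold rise. The same limit holds for IDP2 (20.01 FPKM) and CIT3 (24.2 FPKM).

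With median-of-ratios scaling, which moved the median of all genes from -0.37 to 0.00, 19 members were higher and 2 lower, against 18.7% and 17.5% of all genes. Of the 15 calls 11 held under every alternative. The call of CIT1 was lost without SD3 (adjusted p = 0.0654), that of SDH3 without GD1, SD1, SD2 or SD3 (adjusted p from 0.0662 to 0.131), that of DAL7 without SD2 or SD3 (adjusted p from 0.0511 to 0.0516) and that of IDP2 without GD1, SD2 or SD3 (adjusted p from 0.0516 to 0.0638). Over all alternatives the adjusted p ran from 0.00187 to 0.0654 for CIT1, 0.0189 to 0.142 for SDH3, 0.00157 to 0.0654 for DAL7 and 0.00221 to 0.0638 for IDP2. Without GD2, 21 members were higher, where 15.2% of all genes were. The additional calls were ACO1, KGD2, LPD1, LSC1, SDH1, SDH4, MDH1 and ICL1. GD and SD were compared with the same control library, so the comparisons with it are not independent.

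**Figure D3:**
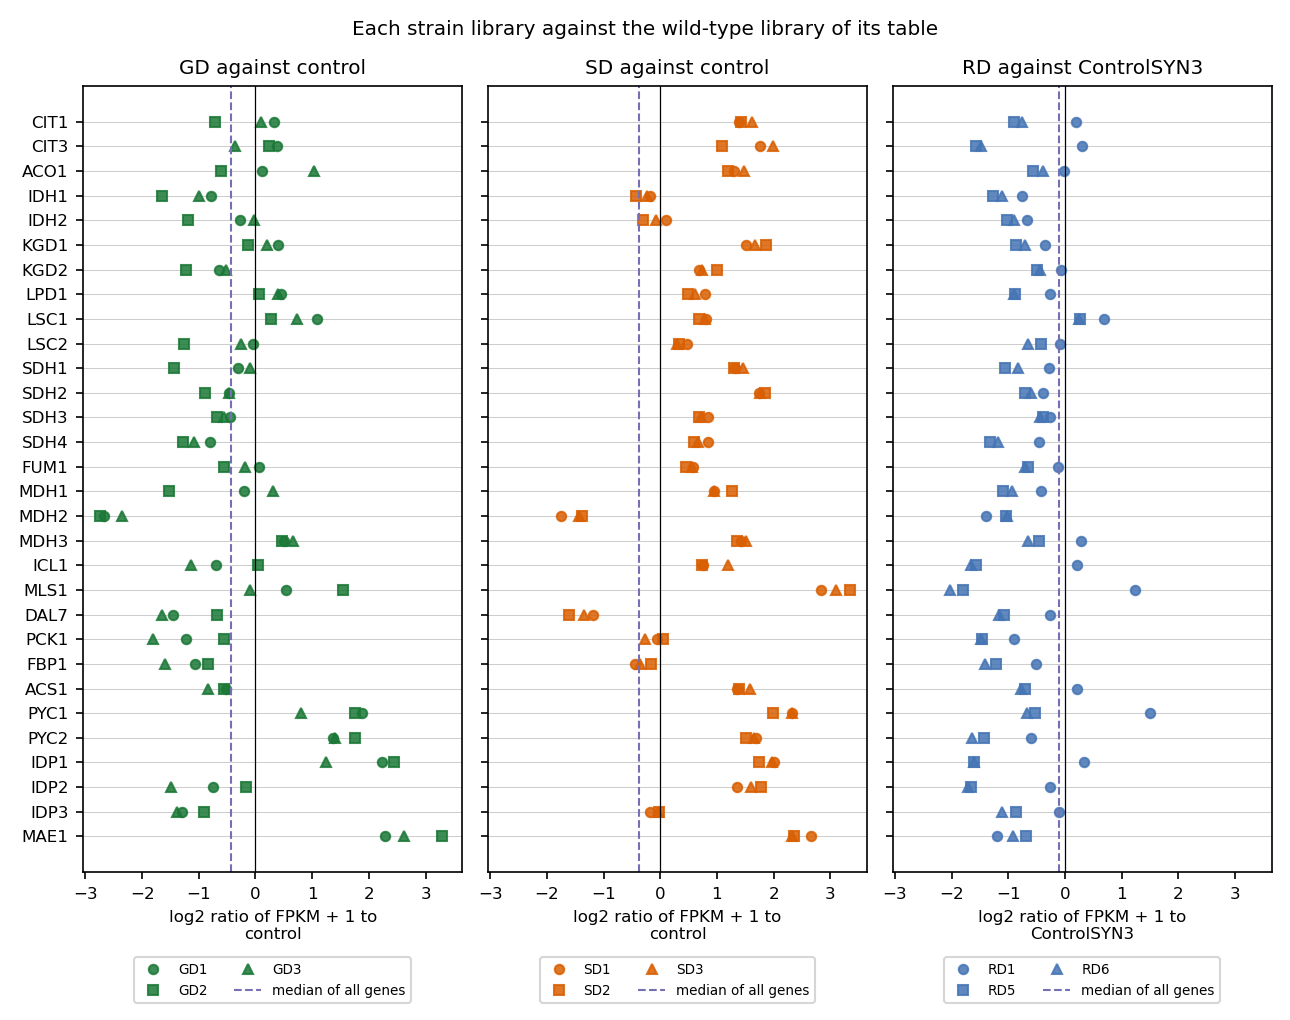
Log2 ratio of FPKM + 1 of each strain library to the wild-type library of its table, control for GD and SD and ControlSYN3 for RD; each point is 1 library and the dashed lines are the medians of all genes, -0.44, -0.37 and -0.10. MDH2 lies to the left of 0 in all 9 strain libraries, and MAE1 lies to the right of 0 in GD and SD and to the left of it in RD.

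RD could be compared with the single ControlSYN3 library, and the outcome turned on RD1. With all 3 RD libraries limma called 0 of the 30 members and 0 of the 5895 genes tested (0%); 671 genes and 4 members (MDH2, PCK1, IDH1 and MAE1) had an unadjusted p under 0.05, and the fit without a variance trend called 1 gene of all. The members' median log2 fold change was -0.77 and that of all genes -0.10. All RD libraries lay below ControlSYN3 for 21 members, against 41.2% of all genes, and above it for LSC1 alone, against 29% of all genes. RD5 and RD6 each lay below ControlSYN3 for 29 members, where 57.4% and 58.3% of all genes did, and RD1 for 21, where 54.6% did. Without RD1 28 of the 30 members were called lower, where 33.2% of all genes were called lower and 22.9% higher. That fit rests on RD5, RD6 and ControlSYN3, with 1 residual degree of freedom, and without RD5 or without RD6 0 members were called. The part of the mating-type difference of RD1 in this was not tested.

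Among the glyoxylate and NADP enzymes RD1 stood apart from RD5 and RD6. MLS1 stood at 26.4 FPKM in ControlSYN3 and at 63.3, 6.91 and 5.70 FPKM in RD1, RD5 and RD6. ICL1 gave 96.3 FPKM in ControlSYN3 and 112, 31.9 and 29.7 FPKM in RD. DAL7 gave 41.05 FPKM in ControlSYN3 and 34.2, 19.1 and 17.7 FPKM in RD. RD1 was above ControlSYN3 for MLS1 and ICL1 and below it for DAL7, while RD5 and RD6 were below it for all 3. IDP1 gave 535 FPKM in ControlSYN3 and 678, 176 and 176 FPKM in RD. IDP2 gave 42.0 FPKM in ControlSYN3 and 34.9, 12.7 and 12.1 FPKM in RD. IDP3 gave 30.2 FPKM in ControlSYN3 and 28.1, 16.2 and 13.4 FPKM in RD. RD1 exceeded ControlSYN3 only for IDP1 among the NADP isocitrate dehydrogenases. Without RD1 the log2 fold changes were -1.91 for MLS1 (adjusted p = 0.000865), -1.61 for ICL1 (adjusted p = 0.000486) and -1.60 for IDP1 (adjusted p = 0.000545). With RD1 they were -0.87, adjusted p = 0.757, -1.01, adjusted p = 0.563 and -0.95, adjusted p = 0.599, and over the alternatives the adjusted p ran from 0.000865 to 0.965, 0.000486 to 0.915 and 0.000545 to 0.927.

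Pyruvate carboxylases and malic enzyme followed different orders in RD. PYC1 gave 109 FPKM in ControlSYN3 and 311, 75.4 and 68.3 FPKM in RD. PYC2 gave 544 FPKM in ControlSYN3 and 359, 201 and 175 FPKM in RD. MAE1 gave 430.4 FPKM in ControlSYN3 and 188, 267 and 227 FPKM in RD. PYC1 was far above ControlSYN3 in RD1 and below it in RD5 and RD6, PYC2 was below it in all 3, and MAE1 was below it in all 3 with RD1 lowest. The log2 fold change of PYC1 was 0.10, adjusted p = 0.959 with all libraries and -0.60 without RD1 (adjusted p = 0.00883), with adjusted p-values of 0.00883 to 0.96 over the alternatives. PCK1 gave 23.9 FPKM in ControlSYN3 and 12.3, 8 and 7.94 FPKM in RD. FBP1 gave 19.9 FPKM in ControlSYN3 and 13.7, 8 and 6.83 FPKM in RD. ACS1 gave 22.4 FPKM in ControlSYN3 and 26.2, 13.3 and 12.7 FPKM in RD. Both gluconeogenic genes were below ControlSYN3 in every RD library, and ACS1 was above it in RD1 alone.

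In the cycle itself the RD libraries lay mostly below ControlSYN3. CIT1 gave 698 FPKM in ControlSYN3 and 799.9, 373 and 414 FPKM in RD. CIT3 gave 28.4 FPKM in ControlSYN3 and 35.0, 8.92 and 9.51 FPKM in RD. MDH3 gave 425 FPKM in ControlSYN3 and 518, 310.0 and 269 FPKM in RD. For these 3 genes RD1 was above ControlSYN3 and RD5 and RD6 were below it. IDH1 gave 508 FPKM in ControlSYN3 and 298, 209 and 235 FPKM in RD. IDH2 gave 978 FPKM in ControlSYN3 and 616, 480.0 and 524 FPKM in RD. KGD1 gave 221 FPKM in ControlSYN3 and 173, 122 and 136 FPKM in RD. Every RD library was below ControlSYN3 for these, with RD1 the highest of the RD libraries. KGD2 gave 323 FPKM in ControlSYN3 and 309, 228 and 237 FPKM in RD. LSC1 gave 255 FPKM in ControlSYN3 and 409.8, 306 and 303 FPKM in RD. LSC2 gave 422 FPKM in ControlSYN3 and 397, 314 and 269 FPKM in RD. KGD2 and LSC2 were below ControlSYN3 in every RD library, and LSC1 was the member for which every RD library exceeded ControlSYN3 (log2 fold change 0.40 ± 0.29 (SE), adjusted p = 0.503). SDH2 gave 544 FPKM in ControlSYN3 and 413, 335 and 359.6 FPKM in RD. SDH4 gave 924 FPKM in ControlSYN3 and 673, 367 and 408 FPKM in RD. MDH1 gave 963 FPKM in ControlSYN3 and 718, 454 and 503 FPKM in RD. The RD libraries were below ControlSYN3 for all of these, as they were for ACO1, LPD1, SDH1, SDH3 and FUM1. MDH2 gave 216 FPKM in ControlSYN3 and 81.5, 105 and 105 FPKM in RD. Here RD1 was the lowest library (log2 fold change -1.15 ± 0.23 (SE), adjusted p = 0.41 with all libraries). Over the alternatives the adjusted p of MDH2 ran from 0.00111 to 0.912, the lowest being that without RD1.

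Libraries of 1 strain group also differed among themselves. GD2 was the lowest GD library for 17 of the 30 members, against 32% of all genes, namely CIT1, ACO1, IDH1, IDH2, KGD1, KGD2, LPD1, LSC1, LSC2, SDH1, SDH2, SDH3, SDH4, FUM1, MDH1, MDH2 and MDH3. GD2 was the highest for 10 members, against 49.1% of all genes, namely ICL1, MLS1, DAL7, PCK1, FBP1, PYC2, IDP1, IDP2, IDP3 and MAE1. GD3 was the lowest for 11 members, against 53.7% of all genes. RD1 was the highest RD library for 28 members, against 51% of all genes, and the lowest for MDH2 and MAE1, against 39.3% of all genes. In SD the members were split, and the share over all genes is given in brackets. SD1 was the lowest for 10 (19.6%) and the highest for 13 (45.5%). SD2 was the lowest for 16 (40.4%) and the highest for 10 (35.8%). SD3 was the lowest for 4 (40%) and the highest for 7 (18.6%). These orders describe single libraries and were not tested.

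**Figure D4:**
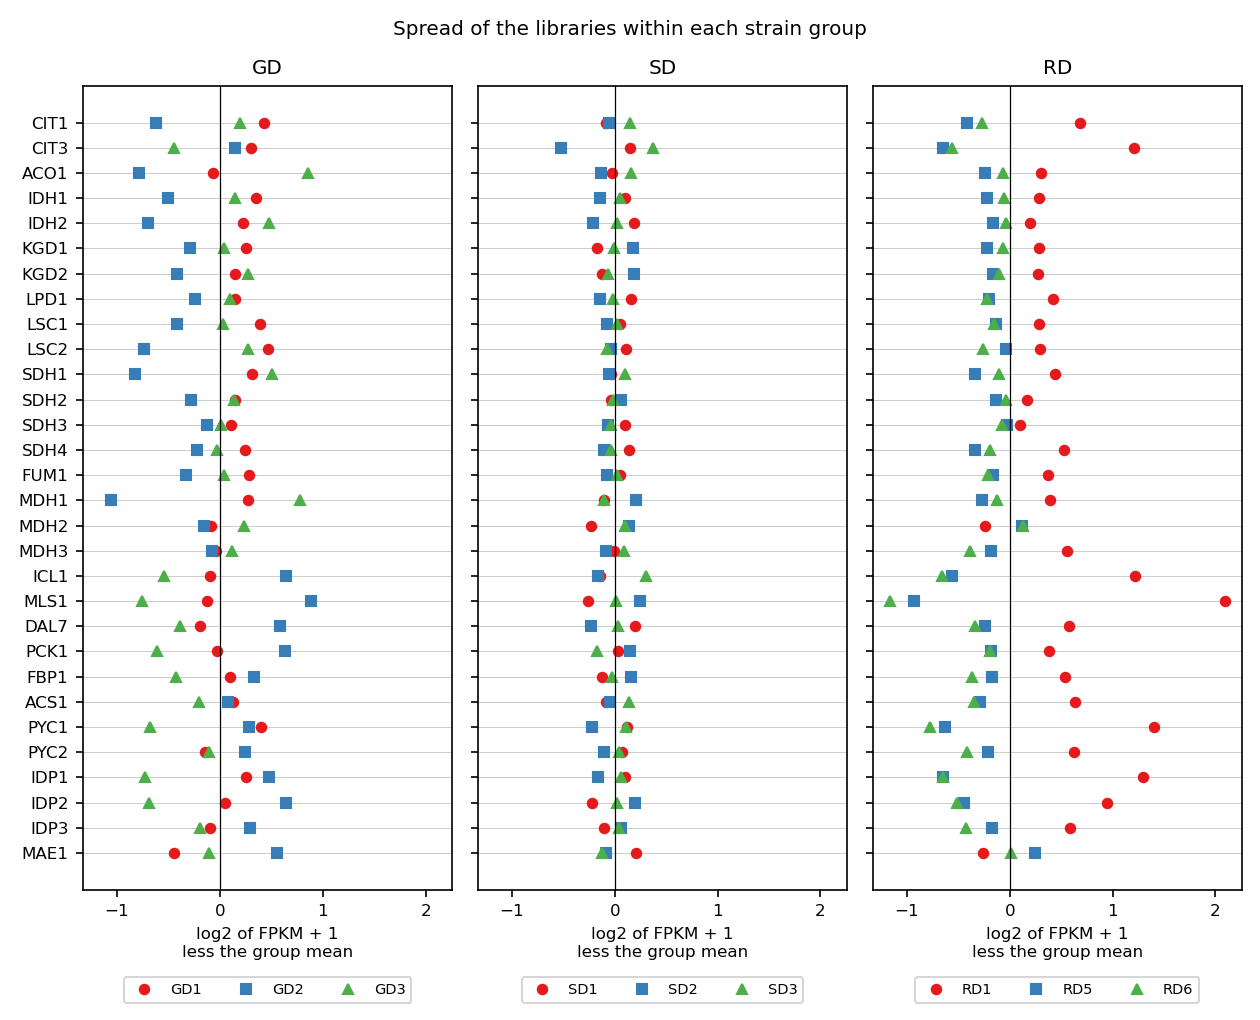
Deviation of each library from its group mean of log2(FPKM + 1), for GD, SD and RD, with each point 1 library. GD2 lies lowest for 17 genes and highest for 10, SD libraries lie close together, and RD1 lies highest for 28 genes.

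Ratios between isoenzymes within a library do not change with its scaling, and FPKM are per length, so levels of different genes can be set side by side. The cytosolic MDH2 exceeded the mitochondrial MDH1 in control alone, at a ratio of 1.43, against 0.224 to 0.612 in GD, 0.218 to 0.275 in SD, 0.224 in ControlSYN3 and 0.114 to 0.231 in RD. The DAL7 to MLS1 ratio was 0.213 to 0.413 in SD, 1.47 to 2.45 in GD and 7.3 in control, with no overlap between these 3 groups. In the other table it was 1.55 in ControlSYN3, 0.54 in RD1, 2.76 in RD5 and 3.1 in RD6, so that MLS1 exceeded DAL7 in SD and RD1 only. The cytosolic IDP2 was 0.0178 to 0.0237 of the mitochondrial IDP1 in GD, 0.0956 to 0.155 in SD and 0.146 in control, and all GD libraries lay below all SD libraries. Where MLS1 or IDP2 lay near the levels of the a-type markers, its ratio is uncertain. The PYC1 to PYC2 ratio was 0.2 in ControlSYN3, 0.867 in RD1, 0.374 in RD5, 0.39 in RD6, 1.03 to 1.17 in SD, 0.484 to 1.06 in GD and 0.74 in control, and GD and SD overlapped.

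Ratios between subunits of a complex also differed between libraries, which was not tested. The LSC2 to LSC1 ratio was 0.53 to 0.788 in GD, 1.1 to 1.23 in SD, 1.55 in control, 1.66 in ControlSYN3 and 0.891 to 1.03 in RD. It was thus lower in each strain library than in the wild-type library of the same table. The KGD2 to KGD1 ratio was 3.26 in control and 1.46 to 1.97 in the other 10 libraries. The IDH2 to IDH1 ratio ran from 1.45 in control to 2.85 in GD3. The spread of a ratio within a group was wide where GD2 stood apart, as for MDH3 over MDH1, at 1.02, 2.51 and 0.802 in GD1, GD2 and GD3.

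**Figure D5:**
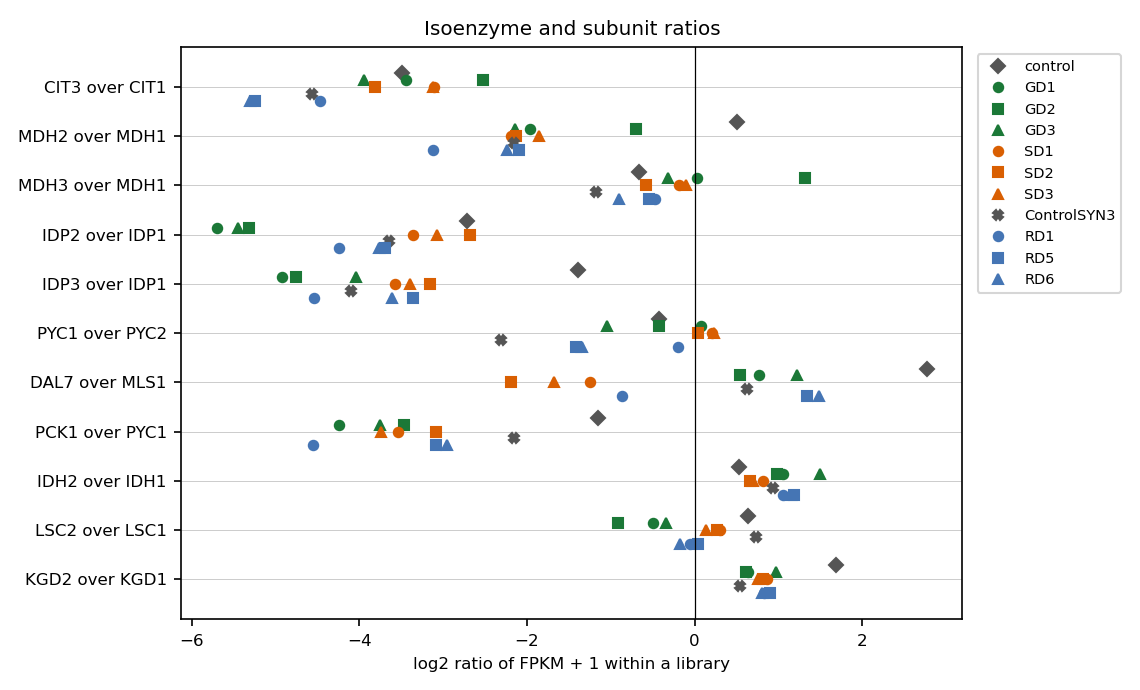
Log2 ratio of FPKM + 1 for 11 pairs of isoenzymes or subunits, each point 1 library. Control stands to the right of all other libraries for MDH2 over MDH1, IDP3 over IDP1, DAL7 over MLS1, PCK1 over PYC1 and KGD2 over KGD1, and GD lies to the left of SD for IDP2 over IDP1 and LSC2 over LSC1.

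Other genes of the pathway, from lists of known function, were counted in the same fit of GD against SD, in which 20.4% of all genes were higher and 20.4% lower. Among 22 further genes of the cycle, its assembly and pyruvate dehydrogenase, 1 was higher and 7 lower (median log2 fold change -0.34), including KGD4 (-1.28, adjusted p = 0.000792), a subunit of 2-oxoglutarate dehydrogenase, and SHH3 (-2.23, adjusted p = 0.000856), a mitochondrial inner membrane homologue of SDH3. Of 12 mitochondrial carriers 2 were higher and 5 lower (median -0.29), including ODC1 (-1.33, adjusted p = 0.000421), an oxodicarboxylate carrier, and MPC3 (-2.79, adjusted p = 0.00117), a pyruvate carrier subunit. Of 13 genes for uptake and supply of acetate and lactate 1 was higher and 9 lower (median -1.79), including CAT2 (-3.56, adjusted p = 0.00012), a carnitine acetyltransferase, and ATO2 (-2.15, adjusted p = 0.000702), a putative ammonium transporter. Of 24 regulators 0 were higher and 9 lower (median -0.34), including MIG1 (-1.61, adjusted p = 0.000366), a glucose repressor, and CAT8 (-2.40, adjusted p = 0.000436), an activator of gluconeogenic genes. HAP4, the activating subunit of the Hap complex, gave 107, 57.1 and 75.4 FPKM in GD and 348, 523 and 392 FPKM in SD and was lower as well (-2.41, adjusted p = 0.000702); it was chosen after its values were seen.

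Of 9 subunits and partners of the GID ubiquitin ligase, which marks Fbp1, Mdh2 and other gluconeogenic enzymes for breakdown on glucose, 0 were higher and 7 lower in GD against SD (median -1.16), including UBC8 (-1.92, adjusted p = 0.000329) and VID30 (-1.43, adjusted p = 0.000414). Of 6 targets of the retrograde response, which include the members CIT1, ACO1, IDH1, IDH2 and PYC1, 3 were lower (median -0.80), and these were members. Of 17 glucose-repressed genes of other pathways 14 were lower (median -2.02), including HXT7 (-3.93, adjusted p = 5.63e-05) and REG2 (-2.23, adjusted p = 0.000142). Of 24 stress-induced genes 23 were lower (median -2.47), including MSC1 (-3.16, adjusted p = 6.87e-05) and RTN2 (-3.47, adjusted p = 6.87e-05), and of 136 cytosolic ribosomal protein genes 130 were higher (median 1.42), including RPS9A (1.47, adjusted p = 0.00254) and RPL1A (1.35, adjusted p = 0.00453). With median-of-ratios scaling these 5 lists kept their direction, with 7, 2, 14 and 23 genes lower and 129 higher in the order given. Over all genes 21% were then lower and 22.2% higher. The stress genes had a median of 168, 124 and 127 FPKM in GD and of 547, 719 and 716 FPKM in SD. The ribosomal protein genes had a median of 1093, 935 and 1782 FPKM in GD and of 391, 659 and 383 FPKM in SD. The markers of alpha-type cells differed too, with a summed 6341 to 11090 FPKM in GD, 2525 to 4826 FPKM in SD and 8769 FPKM in control. Of the 4 genes 3 were higher in GD than in SD (median 1.06), namely MF(ALPHA)1 (1.14, adjusted p = 0.028), MF(ALPHA)2 (3.34, adjusted p = 0.00363) and SAG1 (0.97, adjusted p = 0.026), and STE3 did not pass the test. MF(ALPHA)2, a precursor of the alpha mating pheromone, gave 1763, 386 and 1352 FPKM in GD, 127, 76.7 and 88.1 FPKM in SD and 1287 FPKM in control, so SD was below both. Against control MF(ALPHA)2 and SAG1 were lower in SD (-3.74, adjusted p = 0.00824 and -2.06, adjusted p = 0.00589) and limma called 0 of the 4 in GD, where SAG1 alone had an unadjusted p under 0.05 (0.0255). In GD against SD the GID, glucose-repressed and stress-induced lists moved in the direction of the members. The ribosomal protein genes and the alpha-type markers moved in the opposite direction, and the retrograde targets called lower were members themselves. The part of these lists in the result was not tested.

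The same lists were counted against the wild-type libraries, and counts of only some are given here. Against control, GD had a median log2 fold change of -0.80 for stress genes and -0.88 for glucose-repressed genes. That of the GID list was -0.81 and that of ribosomal protein genes 0.50, against -0.44 over all genes. For SD these medians were 1.68, 0.74, 1.10 and -0.86 in the same order, against -0.37 over all genes. In SD, HAP4 (1.71, adjusted p = 0.00959) and SNF1 (0.88, adjusted p = 0.0151), a kinase that relieves glucose repression, led 4 higher regulators and 1 lower one of 24, CAT2 (2.44, adjusted p = 0.00198) led 7 higher genes of 13 for acetate supply, and 16 of 24 stress genes were higher, where 10.4% of all genes were higher and 31.4% lower. In GD, 0 of 24 regulators were higher and 6 were lower, including MIG1 (-1.45, adjusted p = 0.00504), where 4.98% of all genes were higher and 27.1% lower, so the share of regulators lower was near that of all genes. The retrograde target DLD3, a lactate dehydrogenase, rose in GD (2.77, adjusted p = 0.00362) and in SD (2.66, adjusted p = 0.00162), as did OAC1, an oxaloacetate carrier (2.69, adjusted p = 0.00374 in GD and 1.97, adjusted p = 0.00355 in SD). With median-of-ratios scaling 3 regulators were higher and 3 lower in GD, and 7 were higher and 0 lower in SD. Over all genes 9.32% were then higher and 8.98% lower in GD, and 18.7% higher and 17.5% lower in SD. In RD against ControlSYN3 limma called 0 genes of any list, and without RD1 it called 14 of 22 further cycle genes, 9 of 12 carriers and 10 of 13 acetate genes lower (with 2 of the 13 higher) and 135 of 136 ribosomal protein genes higher, where 33.2% of all genes were called lower and 22.9% higher. The ribosomal protein genes had a median of 216 FPKM in ControlSYN3, 376 in RD1, 1152 in RD5 and 1353 in RD6.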

How the data were processed

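RNA was extracted with Trizol from frozen, ground cells and selected with oligo-dT beads, per the labels' protocols. The authors deposited FPKM, as the column names state per the file headers, in 2 tables (GD, SD and control; RD and ControlSYN3). The submitters' processing notes name RSEM, Bowtie2, BWA and the build R64, with no versions or roles. Whether strand was kept is not given; no annotated gene overlaps a member. FPKM are scaled within a library, so abundant genes can move the values of the rest. A check of low values did not recover whole fragments (mean distance to a whole number 0.149 to 0.190), so the depth is unknown.

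Values were tested as log2(FPKM + 1), with limma 3.58.1 under R 4.3.3 (trended, robust empirical Bayes), a mean per group, genes averaging 1 FPKM or more, and Benjamini-Hochberg adjustment over all genes of the table at 0.05. The steps were tested on simulated data. The fits left 4 and 2 residual degrees of freedom. Each wild-type group is 1 library, taken to vary as the strains do. Alternatives were a pseudocount of 0.1, no minimum or a minimum of 10 FPKM, median-of-ratios scaling, no trend, a fit of only the compared groups, a replicate block, and each library left out in turn. Promoters and coding identities were read with Biopython 1.88 from the RefSeq R64 genome.

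Values are given in full for the isoenzymes of the ratios, ICL1, PCK1, FBP1 and the 6 called members of lowest adjusted p in each comparison; of each list the 2 called genes of lowest adjusted p could be named. Members and lists were chosen with earlier results of these data known. CIT2, PTC6, ADY2, GID7, GLK1 and RPS14A of the lists, and protein features, were not analysed here.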

Additional observations from a re-analysis of the deposited data

Results flagged for a closer look

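For 8 members every GD library lay below control and every SD library above it. Taken singly, the first held for 59.6% of all genes and the second for 28.4%. The share of all genes with both was not computed, so whether 8 is unusual was not tested. The log2 difference of GD minus SD was -1.61 for KGD2, -1.98 for SDH1, -2.39 for SDH2, -1.31 for SDH3, -1.76 for SDH4, -2.08 for ACS1 and -2.38 for IDP2, and these 7 passed the limma test of GD against SD. For LSC2 it was -0.88 and did not pass.

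For 14 members every SD library lay above control and every RD library below ControlSYN3. Taken singly, the first held for 28.4% of all genes and the second for 41.2%. The share of all genes with both was not computed, so whether 14 is unusual was not tested. The difference between these changes was not tested, since the tables were compared only within themselves. The log2 change of RD, which was not called for any of them, was -0.32 for ACO1, -0.64 for KGD1, -0.34 for KGD2, -0.68 for LPD1, -0.39 for LSC2 and -0.73 for SDH1. It was -0.56 for SDH2, -0.36 for SDH3, -0.99 for SDH4, -0.49 for FUM1, -0.81 for MDH1, -1.22 for PYC2, -1.21 for IDP2 and -0.93 for MAE1. For LPD1 (-0.68), PYC2 (-1.22) and MAE1 (-0.93) every GD library also lay above control, as it did for 16.2% of all genes. That difference was not tested either.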

How the results depend on the processing

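In GD against SD the count of lower members was 21, and 20 with median-of-ratios scaling, 21 with the replicate block and 15 to 23 with 1 library left out. Over all genes the share lower was 20.4%, 21%, 17.3% and 12% to 29.9% in the same order. In GD against control, 4 members were higher and 7 lower, where 4.98% and 27.1% of all genes were. Median-of-ratios scaling gave 2 lower, where 8.98% of all genes were. The groups compared alone gave 1 higher and 1 lower, where 0.966% and 2.98% of all genes were. The replicate block gave 1 higher and 2 lower, where 1.59% and 6.26% of all genes were. Leaving out 1 library gave 3 to 5 higher and 2 to 10 lower, where 3.09% to 7.72% and 16.9% to 39.4% of all genes were. In SD against control, 13 were higher and 2 lower, where 10.4% and 31.4% of all genes were. The groups compared alone gave 22 higher, where 17.8% of all genes were. The replicate block gave 12 higher and 1 lower, where 6.68% and 18.5% of all genes were. Leaving out 1 library gave 10 to 21 higher and 1 to 2 lower, where 6.61% to 15.2% and 21.4% to 40% of all genes were. In RD against ControlSYN3 leaving out 1 library gave 0 to 28 lower, the 28 without RD1, where 33.2% of all genes were lower. The cause of these moves was not tested.

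Same-numbered GD and SD libraries did not deviate together (correlations -0.13, -0.18 and -0.17 over genes), so the numbers do not pair them. No paired analysis was possible for RD against ControlSYN3 because they share only the number 1.

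Of 1410 values of single members under an alternative, 1255 kept their direction and side of the threshold, 61 newly passed it, 74 no longer passed it and 20 changed sign; PYC1 in RD alone was past the threshold after the change (-0.60 to 0.49 with 1 library left out, the lowest without RD1). In GD against SD the others, with 1 library left out, were IDP1 (-0.17 to 0.43), LSC1 (-0.25 to 0.15) and DAL7 (-0.17 to 0.31). In GD against control they were CIT1 (0.32) and FUM1 (0.19) with median-of-ratios scaling and CIT1 (0.07) with the block, and with 1 library left out CIT1 (-0.31 to 0.21), CIT3 (-0.06 to 0.31), MDH1 (-0.86 to 0.06) and ACO1 (-0.24 to 0.58). In SD against control they were IDH1 (0.10), IDH2 (0.29), PCK1 (0.27), FBP1 (0.04) and IDP3 (0.30) with median-of-ratios scaling, and IDH2 (0.12) with the block or with 1 library left out (-0.19 to 0.01). The unknown depth, the lone wild-type libraries and the few residual degrees of freedom limit all of these comparisons.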
